A study of Homo sapiens with 6 samples.

Results

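Homologous recombination and Fanconi anaemia repair were followed here through 38 genes that act in end resection, strand exchange, crosslink repair and the processing of joined DNA molecules. The members were taken by name and matched through their NCBI Gene IDs, and all 38 were found among the 28395 gene IDs of each count table. They were divided by general knowledge of their regulation into 23 cell-cycle-bound and 15 constitutive genes. The first class holds genes known as E2F or DREAM targets or as transcripts of S and G2 phase. The classes were set with earlier results of these data known, so the contrast between them describes these data and is no independent test. RNA was sequenced from A375, an established human melanoma line grown in RPMI medium, after 72 h in each of 3 conditions. The conditions were 1 µM palbociclib, which inhibits the cell-cycle kinases CDK4 and CDK6, 500 nM GSK3326595, which inhibits the arginine methyltransferase PRMT5, and vehicle, 0.01% DMSO. Each condition had 2 libraries of the same cell line. The labels do not say that these came from separate cultures, so the p-values cover only how far these libraries differ, which can be technical variation.

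Homologous recombination repairs a broken chromosome by copying the sister chromatid, and cells therefore use it mainly in S and G2 phase. The MRE11, RAD50 and NBN complex and the protein of RBBP8 (CtIP) open the broken end, EXO1 lengthens the single strand, and BRCA1 with BARD1, PALB2 and BRCA2 bring the recombinase onto it. In the Fanconi anaemia pathway a core complex with the conjugating enzyme UBE2T attaches ubiquitin to the FANCD2 and FANCI pair at a DNA crosslink, and USP1 takes it off again. Joined chromosomes are then separated either by the BLM, TOP3A, RMI1 and RMI2 complex or by nucleases such as MUS81 with EME1.

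Total counts per library lay between 16589153 and 20842099, and the first 2 principal components held 52.27% and 25.32% of the variance and separated the 3 conditions. Every one of the 38 members passed the filter on low counts that left 16381 genes, with 104 counts for RAD51B as the lowest count of a member in any library and 3211 for FANCI as the highest. The 8 markers of cycling cells had summed levels of 642.3 and 717.9 CPM (each count relative to the TMM-scaled size of its library) in palbociclib, 1186 and 1184 CPM in GSK3326595 and 1936 and 2164 CPM in DMSO. MKI67, a protein of cycling nuclei, stood at 144.2 and 170.7 CPM in palbociclib, 301.7 and 298.4 CPM in GSK3326595 and 549.7 and 572.4 CPM in DMSO. The part that the share of cycling cells had in the results was not tested. Of 8 melanocytic markers, SOX10 and MITF lay between 57.39 and 236.7 CPM in all libraries, while TYR, TYRP1 and DCT stayed under 1 CPM. PMEL was also low, between 1.145 and 2.45 CPM, as was MLANA, between 0.937 and 1.982 CPM. Some markers moved with treatment: S100B rose by 1.66 on the log2 scale in palbociclib and MITF by 0.49 in GSK3326595 (edgeR adjusted p = 3.15e-05 and 0.00324). The 5 keratinocyte and epithelial markers summed to between 468.2 and 602.5 CPM, nearly all of it KRT18, which was not called, with EPCAM and CDH1 under 1 CPM and KRT14 higher in palbociclib by 1.86 (edgeR adjusted p = 7.98e-05). The 5 fibroblast and endothelial markers summed to 27.68 and 22.58 CPM in palbociclib, 59.33 and 50.39 CPM in GSK3326595 and 46.69 and 38.16 CPM in DMSO, and COL1A1 had log2 fold changes of -1.07 and 1.05 in palbociclib and GSK3326595 (edgeR adjusted p = 9.48e-05 and 0.000197). The 5 blood markers summed to at most 1.107 CPM in any library. The part of these markers in the results was not tested.

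In palbociclib against DMSO, 30 of the 38 members were lower, 0 were higher and 8 were not called, at an adjusted p under 0.05 from edgeR's quasi-likelihood test with Benjamini-Hochberg correction over all genes. Among all genes tested, 20.2% were called lower and 19.3% higher in the same comparison. None of the members was higher at an unadjusted p under 0.05 either, and DESeq2 called 28 lower and 0 higher. In 19 members the fall was at least 2-fold, which held for 4.66% of all genes. The median log2 fold change was -0.99 over the members and -0.02 over all genes. In bulk RNA, fewer cells that express a gene and less RNA of it per cell cannot be told apart.

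In GSK3326595 against DMSO, 25 members were lower, 2 were higher and 11 were not called by the same edgeR test. All genes were called lower in 10.2% and higher in 8.58% of cases. FANCI was the member that fell at least 2-fold, a size reached by 1.6% of all genes. The median log2 fold change of the members was -0.64, against 0.00 over all genes. Both inhibitors were compared with the same DMSO libraries, so the 2 sets of values are not independent of each other. In the direct comparison of palbociclib with GSK3326595, 22 members were lower, 1 was higher and 15 were not called, while 18.2% of all genes were lower and 16.6% higher. The background shares changed when a library was left out. With all libraries the count of all genes called was 6470 in palbociclib against DMSO, 3081 in GSK3326595 against DMSO and 5707 in the direct comparison. Leaving out 1 library lowered or raised the first 2 counts, depending on the library, and lowered the third. The causes were not tested.

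**Figure D1:**
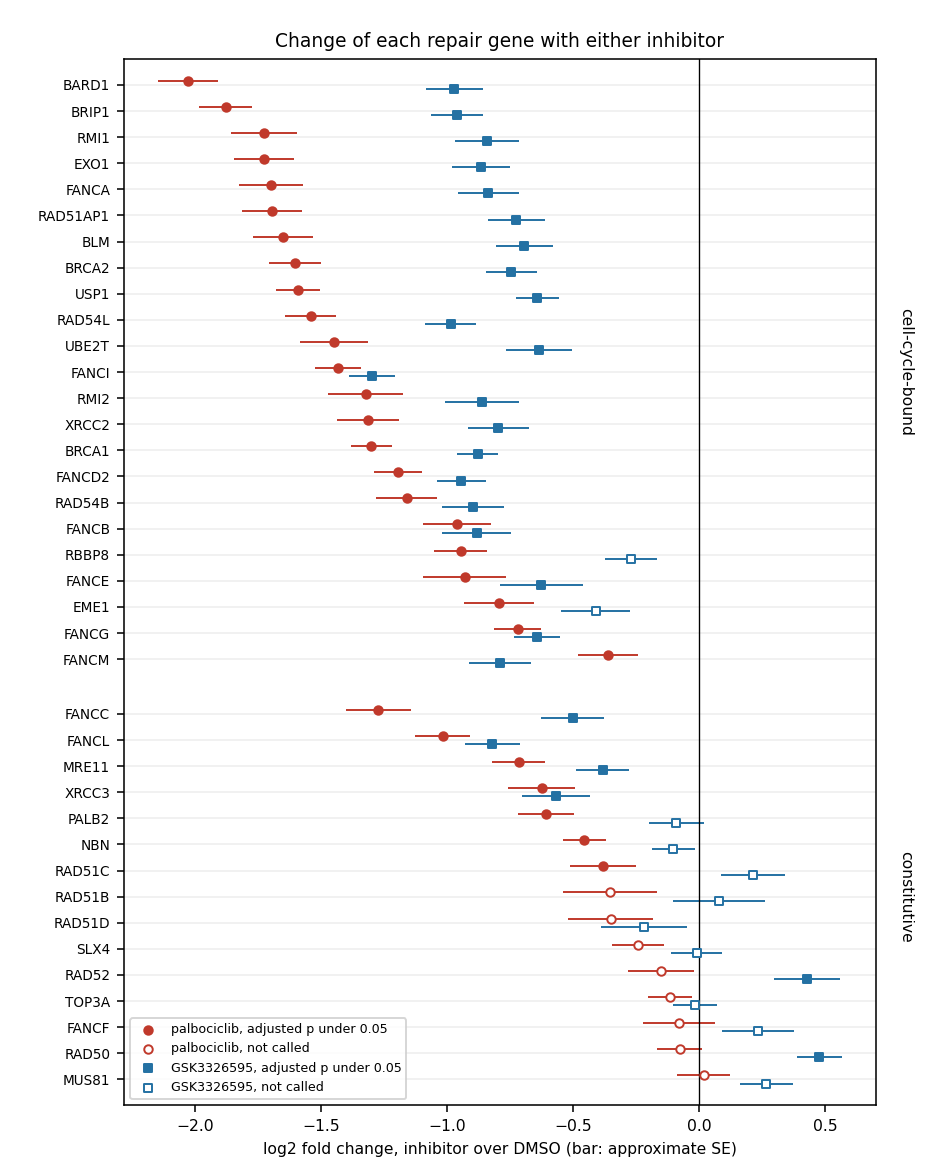
Log2 fold change of each member (horizontal axis) for palbociclib (circles) and GSK3326595 (squares), each over DMSO, with the approximate standard error as a bar and a filled symbol at an edgeR adjusted p under 0.05. Members run down the page by class. All 23 cell-cycle-bound members are filled and left of 0 in palbociclib against DMSO, against 7 of the 15 constitutive members. Of all genes tested, 20.2% were called lower there.

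All 23 cell-cycle-bound members fell in palbociclib, 17 of them at least 2-fold, and their median log2 fold change was -1.43. Among all genes tested, 20.2% were called lower in palbociclib, and 4.66% were lower by at least 2-fold. Of the 15 constitutive members 7 fell, 2 of them (FANCC and FANCL) at least 2-fold, and 8 went uncalled, and the class median was -0.35. In GSK3326595, 21 of the 23 cell-cycle-bound members fell and RBBP8 and EME1 went uncalled, and the class median was -0.84. Among all genes tested, 10.2% were called lower and 8.58% higher in GSK3326595. Of the constitutive members 4 fell, 2 rose and 9 went uncalled, and the class median was -0.02. That count of 4 became 1 when GSK3326595 replicate 2 or DMSO replicate 1 was left out, since XRCC3, FANCC and MRE11 were then no longer called. Summed over the 23 cell-cycle-bound genes, levels were 497.6 and 512.5 CPM in palbociclib, 753.1 and 715.3 CPM in GSK3326595 and 1252 and 1335 CPM in DMSO. Summed over the 15 constitutive genes they were 535.0 and 528.6 CPM in palbociclib, 693.2 and 657.2 CPM in GSK3326595 and 684.1 and 684.0 CPM in DMSO. The 3 conditions did not overlap in the first sum, while the DMSO libraries lay between the GSK3326595 libraries in the second.

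The class border is a judgement for 8 members (XRCC2, RAD54B, FANCG, FANCE, FANCM, RMI1, PALB2 and RAD51C). With these set aside, 17 of 17 cell-cycle-bound members were lower in palbociclib and 15 of 17 in GSK3326595. Of the 13 constitutive members then left, 5 were lower in palbociclib, and 4 were lower and 2 higher in GSK3326595. The shares of all genes were 20.2% lower in palbociclib, and 10.2% lower and 8.58% higher in GSK3326595.

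The BRCA1 group fell strongly in palbociclib. BARD1 (Gene ID 580; GRCh38 chromosome 2, 214725646 to 214809683), the partner that BRCA1 needs for its ubiquitin ligase activity, had the lowest log2 fold change of all members in palbociclib. It was present at 8.03 and 7.35 CPM in palbociclib, 16.3 and 15.7 CPM in GSK3326595 and 30.8 and 32.0 CPM in DMSO. The conditions were clearly apart, with palbociclib libraries lowest. The log2 fold change of BARD1 was -2.03 ± 0.12 (SE) in palbociclib and -0.97 ± 0.113 in GSK3326595, with edgeR adjusted p-values of 2.49e-07 and 0.000156. BRIP1 (Gene ID 83990; chromosome 17, 61679139 to 61863528), a helicase that binds BRCA1 and is also a Fanconi protein, had 14.1 and 14.9 CPM in palbociclib, 28.7 and 26.2 CPM in GSK3326595 and 54.7 and 52.3 CPM in DMSO. It fell to 27.2% of the DMSO level in palbociclib and to 51.3% in GSK3326595, with edgeR adjusted p-values of 1.93e-07 and 8.37e-05.

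BRCA1 itself (Gene ID 672; chromosome 17, 43044295 to 43170327) had 50.03 and 51.79 CPM in palbociclib, 68.6 and 67.9 CPM in GSK3326595 and 122 and 129 CPM in DMSO. It was thus lower in both inhibitors, at 40.5% of the DMSO level in palbociclib and 54.3% in GSK3326595, with edgeR adjusted p-values of 3.53e-07 and 4.47e-05. RBBP8, which starts resection together with the MRE11 nuclease, had 36.3 and 38.9 CPM in palbociclib, 56.2 and 64.0 CPM in GSK3326595 and 67.3 and 77.7 CPM in DMSO. It fell in palbociclib, by 0.95 on the log2 scale (edgeR adjusted p = 2.76e-05). In GSK3326595 its log2 fold change of -0.27 was not called (edgeR adjusted p = 0.0894), although its libraries there lay under both DMSO libraries.

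The mediators carry the recombinase to DNA, and here they differed from each other. BRCA2 (Gene ID 675; chromosome 13, 32315077 to 32400268), which loads the recombinase, had 22.7 and 21.8 CPM in palbociclib, 43.3 and 37.5 CPM in GSK3326595 and 67.9 and 67.5 CPM in DMSO. Its log2 fold change was -1.60 ± 0.104 in palbociclib and -0.75 ± 0.101 in GSK3326595 (edgeR adjusted p = 4.43e-07 and 0.00043). PALB2 (Gene ID 79728; chromosome 16, 23603165 to 23641310), which joins BRCA2 to BRCA1, had 26.1 and 23.3 CPM in palbociclib, 37.7 and 32.9 CPM in GSK3326595 and 37.8 and 37.4 CPM in DMSO. PALB2 fell in palbociclib to 65.6% of the DMSO level (edgeR adjusted p = 0.001), a smaller change than that of BRCA2. In GSK3326595 its log2 fold change was -0.09 ± 0.109 and was not called (edgeR adjusted p = 0.608).

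**Figure D2:**
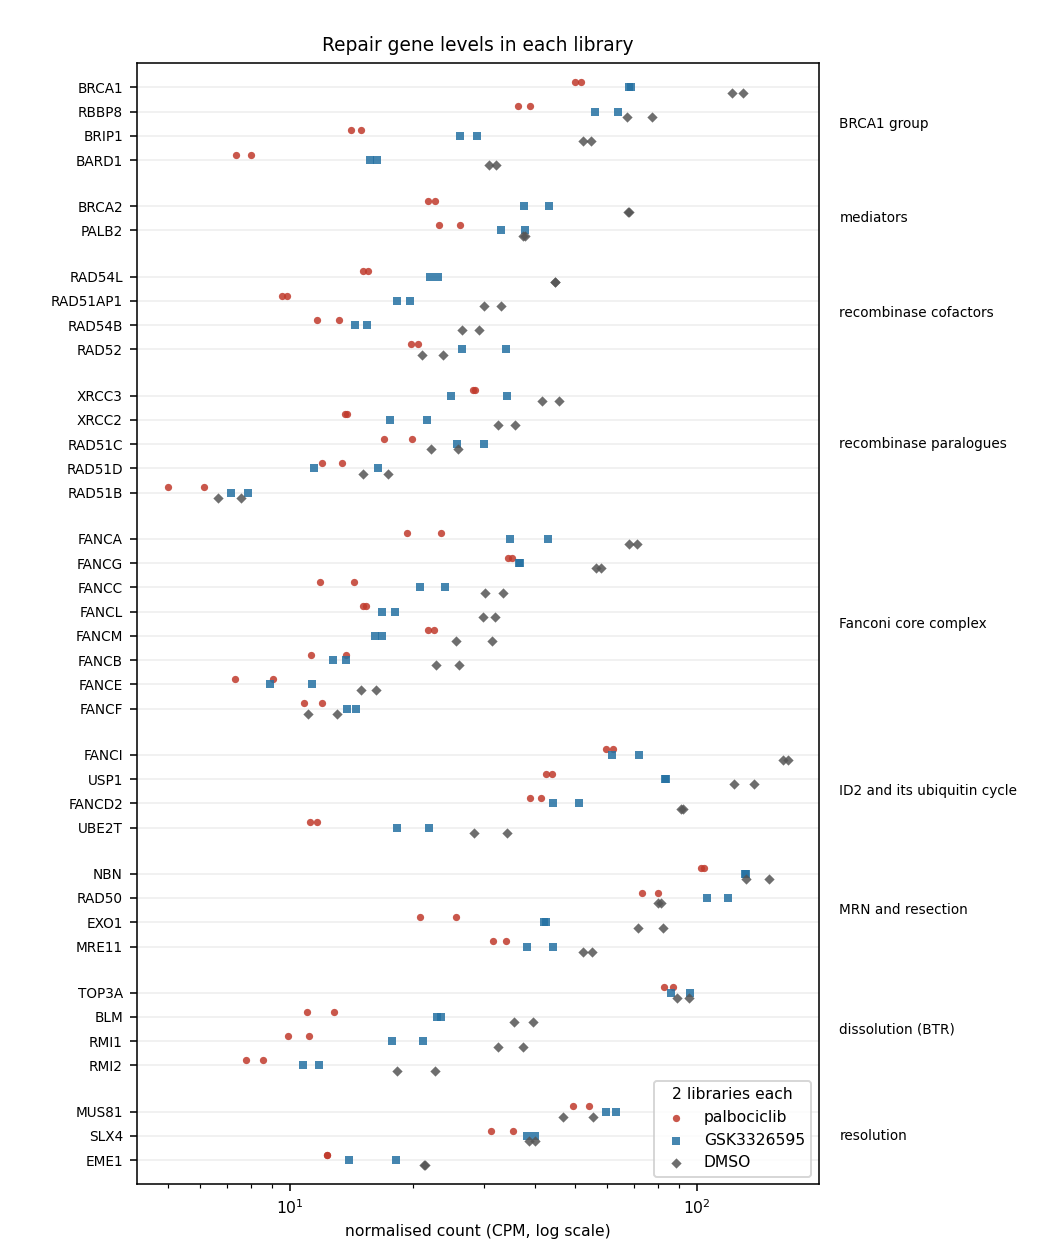
Normalised count of every member in each of the 6 libraries (CPM, log axis), grouped by role, with 2 points for palbociclib, 2 for GSK3326595 and 2 for DMSO. FANCI, BRCA1 and USP1 show wide gaps between the DMSO points and the palbociclib points, while the points of TOP3A, MUS81 and FANCF lie close together.

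Of the cofactors that help the recombinase invade the partner duplex, 3 of 4 fell in both inhibitors. The shares of all genes called lower were 20.2% in palbociclib and 10.2% in GSK3326595. RAD54L, a motor protein that remodels the joined strands, had 15.1 and 15.6 CPM in palbociclib, 23.1 and 22.1 CPM in GSK3326595 and 44.8 and 44.7 CPM in DMSO. It fell to 50.5% of the DMSO level in GSK3326595 and by 1.54 on the log2 scale in palbociclib (edgeR adjusted p = 6.91e-05 and 5.01e-07). RAD51AP1, which stimulates strand pairing, had 9.55 and 9.85 CPM in palbociclib, 19.7 and 18.4 CPM in GSK3326595 and 29.9 and 33.0 CPM in DMSO, and its log2 fold changes were -1.70 and -0.73. RAD54B, related to RAD54L, fell by 1.16 in palbociclib and by 0.90 in GSK3326595 on the log2 scale. The exons of RAD54L and RAD54B overlap those of other genes, and whether reads were shared was not tested: 18.0% of the exon bases of RAD54L lie in LRRC41 on the opposite strand, and 63.3% of those of RAD54B lie in FSBP on the same strand. LRRC41 rose by 0.23 on the log2 scale in palbociclib, and FSBP had 0 counts.

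RAD52, an annealing protein that can load the recombinase independently of BRCA2, was one of the 2 members that rose in GSK3326595. It had 19.8 and 20.7 CPM in palbociclib, 33.9 and 26.5 CPM in GSK3326595 and 23.8 and 21.1 CPM in DMSO. The GSK3326595 libraries were above the others, and the 2 differed from each other by more than the DMSO libraries did. The log2 fold change was 0.43 ± 0.13 in GSK3326595 (edgeR adjusted p = 0.0397) and -0.15 ± 0.132 in palbociclib (edgeR adjusted p = 0.39). The call in GSK3326595 was lost in 8 of 13 alternatives. Without GSK3326595 replicate 1 the log2 fold change was 0.23 (edgeR adjusted p = 0.259), and the edgeR adjusted p was 0.0579 and 0.059 without palbociclib replicate 1 or 2, 0.07 and 0.193 without DMSO replicate 1 or 2, and 0.0886 with library totals as the scaling. DESeq2 gave an adjusted p of 0.052.

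The recombinase paralogues form small complexes that stabilise the recombinase filament, and their transcripts changed unequally. XRCC2, which sits in a complex with RAD51B, RAD51C and RAD51D, had 13.8 and 13.6 CPM in palbociclib, 21.7 and 17.6 CPM in GSK3326595 and 32.5 and 35.8 CPM in DMSO. It fell by 1.32 on the log2 scale in palbociclib and by 0.80 in GSK3326595 (edgeR adjusted p = 7.76e-06 and 0.000997). Its 3 partners stayed closer to the DMSO level. RAD51B had log2 fold changes of -0.35 ± 0.186 and 0.08 ± 0.183 in palbociclib and GSK3326595 and was not called in either. RAD51D, at -0.35 in palbociclib and -0.22 in GSK3326595, was not called in either, but passed in palbociclib without GSK3326595 replicate 1 or 2 (edgeR adjusted p = 0.0488 and 0.0436) and in GSK3326595 without its replicate 1 (edgeR adjusted p = 0.0451).

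RAD51C, which belongs to both paralogue complexes, had 17.0 and 19.9 CPM in palbociclib, 25.8 and 30.0 CPM in GSK3326595 and 22.2 and 25.8 CPM in DMSO. Its log2 fold change in palbociclib was -0.38 ± 0.13 (edgeR adjusted p = 0.0344), and the call was lost without palbociclib replicate 1 (edgeR adjusted p = 0.239), without DMSO replicate 2 (edgeR adjusted p = 0.265) and with DESeq2 (adjusted p = 0.0831). XRCC3, the partner of RAD51C in the second complex, had 28.1 and 28.4 CPM in palbociclib, 34.1 and 24.8 CPM in GSK3326595 and 45.7 and 41.5 CPM in DMSO. Both inhibitors lay under DMSO, by 0.63 on the log2 scale in palbociclib and 0.57 in GSK3326595 (edgeR adjusted p = 0.00304 and 0.0132). The second call was lost without GSK3326595 replicate 2 (edgeR adjusted p = 0.0732) and without DMSO replicate 1 (edgeR adjusted p = 0.0557). In XRCC3, 45.3% of the exon bases lie in KLC1 on the opposite strand, whose log2 fold changes were 0.19 and 0.04 and were not called.

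In the Fanconi core complex, the ubiquitin ligase of the pathway, 7 of 8 members fell in both inhibitors and FANCF was not called in either. The shares of all genes called lower were 20.2% in palbociclib and 10.2% in GSK3326595. FANCA (Gene ID 2175; chromosome 16, 89737549 to 89816647), a subunit of the complex, had 19.4 and 23.4 CPM in palbociclib, 43.1 and 34.8 CPM in GSK3326595 and 71.1 and 68.1 CPM in DMSO. It had the largest change of the 8 in palbociclib, with log2 fold changes of -1.70 ± 0.127 there and -0.84 ± 0.122 in GSK3326595 (edgeR adjusted p = 1.21e-06 and 0.000732). For FANCA, 22.4% of the exon bases lie in ZNF276 on the opposite strand, which rose by 0.35 on the log2 scale in palbociclib. FANCF, an adaptor inside the complex, had 11.9 and 10.8 CPM in palbociclib, 14.5 and 13.8 CPM in GSK3326595 and 13.1 and 11.04 CPM in DMSO. The palbociclib and DMSO libraries of FANCF overlapped, and its log2 fold changes were -0.08 and 0.23.

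FANCC and FANCL were classed as constitutive, yet both fell in both inhibitors, and at least 2-fold in palbociclib. FANCC (Gene ID 2176; chromosome 9, 95099054 to 95317709), which binds FANCE, had 14.4 and 11.9 CPM in palbociclib, 24.0 and 20.8 CPM in GSK3326595 and 33.3 and 30.2 CPM in DMSO. It fell to 41.3% of the DMSO level in palbociclib (edgeR adjusted p = 1.34e-05). In GSK3326595 it fell by 0.50 on the log2 scale (edgeR adjusted p = 0.0162), a call lost without GSK3326595 replicate 2 (edgeR adjusted p = 0.0851) or DMSO replicate 1 (edgeR adjusted p = 0.0821). FANCL, the catalytic subunit of the ligase, had 15.3 and 15.1 CPM in palbociclib, 18.1 and 16.8 CPM in GSK3326595 and 29.8 and 31.9 CPM in DMSO. Its log2 fold changes were -1.02 ± 0.109 and -0.82 ± 0.109 (edgeR adjusted p = 2.12e-05 and 0.000398). Of its exon bases 26.6% lie in VRK2 on the opposite strand, which fell by 0.51 on the log2 scale in palbociclib and was not called in GSK3326595 at -0.09.

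FANCB, FANCG and FANCE, further subunits, had log2 fold changes of -0.96, -0.72 and -0.93 in palbociclib and of -0.88, -0.64 and -0.63 in GSK3326595. All 6 values were called, but that of FANCE in GSK3326595 was lost without GSK3326595 replicate 2 (edgeR adjusted p = 0.111) or DMSO replicate 1 (edgeR adjusted p = 0.0889). FANCM (Gene ID 57697; chromosome 14, 45135930 to 45200890), a DNA translocase that brings the complex to stalled forks, had 21.8 and 22.5 CPM in palbociclib, 16.8 and 16.2 CPM in GSK3326595 and 25.6 and 31.4 CPM in DMSO. The GSK3326595 libraries were the lowest, whereas in the other 7 genes of the complex the palbociclib mean was the lowest. Its log2 fold change was -0.79 ± 0.123 in GSK3326595 (edgeR adjusted p = 0.00109) and -0.36 ± 0.119 in palbociclib (edgeR adjusted p = 0.0292). The palbociclib call of FANCM was lost without palbociclib replicate 1 (edgeR adjusted p = 0.142), palbociclib replicate 2 (0.104) or DMSO replicate 2 (0.342, at a log2 fold change of -0.19), and with DESeq2 (adjusted p = 0.0894).

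The FANCD2 and FANCI pair that the ligase modifies fell in both inhibitors, as did the enzymes that add and remove its ubiquitin. FANCI (Gene ID 55215; chromosome 15, 89243979 to 89317259) had 62.1 and 59.9 CPM in palbociclib, 71.9 and 61.9 CPM in GSK3326595 and 162 and 167 CPM in DMSO. Its log2 fold change was -1.43 ± 0.0904 in palbociclib and -1.30 ± 0.0904 in GSK3326595 (edgeR adjusted p = 3.56e-07 and 1.36e-05). The libraries of the 2 inhibitors overlapped, and the direct comparison gave -0.13 ± 0.0913 (edgeR adjusted p = 0.286). FANCD2 (Gene ID 2177; chromosome 3, 10026437 to 10101932) had 41.3 and 38.8 CPM in palbociclib, 51.1 and 44.2 CPM in GSK3326595 and 91.0 and 92.3 CPM in DMSO. It fell by 1.20 and 0.94 on the log2 scale in palbociclib and GSK3326595 (edgeR adjusted p = 2.15e-06 and 7.21e-05), and the direct difference of -0.25 ± 0.098 was not called (edgeR adjusted p = 0.0655), though it was without GSK3326595 replicate 2 (edgeR adjusted p = 0.0211).

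USP1 (Gene ID 7398; chromosome 1, 62436395 to 62451804), the deubiquitinase, had 44.0 and 42.5 CPM in palbociclib, 83.6 and 83.7 CPM in GSK3326595 and 123 and 138 CPM in DMSO. The 3 conditions were apart, at 33.1% of the DMSO level in palbociclib and 64.1% in GSK3326595 (edgeR adjusted p = 1.76e-07 and 0.00036). WDR48, the cofactor that activates USP1, had 51.6 and 53.9 CPM in palbociclib, 59.5 and 60.7 CPM in GSK3326595 and 52.3 and 58.6 CPM in DMSO, and was not called in either inhibitor. UBE2T, the conjugating enzyme, had 11.2 and 11.7 CPM in palbociclib, 18.3 and 21.9 CPM in GSK3326595 and 28.3 and 34.2 CPM in DMSO. It fell by 1.45 and 0.64 on the log2 scale (edgeR adjusted p = 6.85e-06 and 0.0059), and the second call was lost without DMSO replicate 2 (edgeR adjusted p = 0.0596). Per kilobase of the principal transcript, mean levels of UBE2T were 12.6 CPM in palbociclib, 22.1 CPM in GSK3326595 and 34.4 CPM in DMSO, and those of FANCI were 12.9, 14.2 and 34.9 CPM in the same order.

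The MRE11, RAD50 and NBN complex, which binds broken ends, differed between its subunits. RAD50 (Gene ID 10111; chromosome 5, 132556977 to 132646349), its tethering subunit, had 80.1 and 73.1 CPM in palbociclib, 106 and 119 CPM in GSK3326595 and 81.4 and 80.2 CPM in DMSO. RAD50 rose in GSK3326595 to 139% of the DMSO level (log2 fold change 0.48 ± 0.0889, edgeR adjusted p = 0.00342) and was called in every alternative run, while in palbociclib it was not called at -0.08 (edgeR adjusted p = 0.517). MRE11, the nuclease, had 33.9 and 31.6 CPM in palbociclib, 44.4 and 38.1 CPM in GSK3326595 and 55.2 and 52.4 CPM in DMSO. It fell to 60.8% of the DMSO level in palbociclib (edgeR adjusted p = 0.000227). In GSK3326595 the log2 fold change of MRE11 was -0.38 ± 0.105 (edgeR adjusted p = 0.0247), and the edgeR adjusted p became 0.136 without GSK3326595 replicate 2, 0.0946 and 0.0559 without DMSO replicate 1 or 2, and 0.0521 with library totals as the scaling.

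NBN, which brings the complex to the damage signal, had 102 and 104 CPM in palbociclib, 132 and 131 CPM in GSK3326595 and 132 and 150.0 CPM in DMSO. It fell by 0.46 on the log2 scale in palbociclib (edgeR adjusted p = 0.00126) and was not called in GSK3326595 at -0.10 (edgeR adjusted p = 0.439). EXO1 (Gene ID 9156; chromosome 1, 241847986 to 241889939), the exonuclease that lengthens the resected strand, had 20.9 and 25.6 CPM in palbociclib, 42.0 and 42.6 CPM in GSK3326595 and 71.4 and 82.6 CPM in DMSO. It fell by 1.73 on the log2 scale in palbociclib and by 0.87 in GSK3326595 (edgeR adjusted p = 6.41e-07 and 0.000374).

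In the complex that dissolves joined chromosomes, BLM, RMI1 and RMI2 fell and TOP3A did not pass the test. BLM, the helicase, had 11.02 and 12.8 CPM in palbociclib, 23.4 and 23.0 CPM in GSK3326595 and 35.5 and 39.5 CPM in DMSO, with log2 fold changes of -1.65 and -0.69 (edgeR adjusted p = 8.97e-07 and 0.00144). RMI1, a scaffold subunit, had 9.91 and 11.2 CPM in palbociclib, 21.2 and 17.8 CPM in GSK3326595 and 32.4 and 37.4 CPM in DMSO, with log2 fold changes of -1.73 and -0.84. RMI2, the other scaffold subunit, fell by 1.32 and 0.86 on the log2 scale (edgeR adjusted p = 2.9e-05 and 0.00186). TOP3A, the topoisomerase, had 83.1 and 87.1 CPM in palbociclib, 96.2 and 86.3 CPM in GSK3326595 and 89.0 and 95.4 CPM in DMSO. Its conditions overlapped, and its log2 fold changes were -0.12 ± 0.0868 and -0.02 ± 0.087 (edgeR adjusted p = 0.309 and 0.924).

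Of the genes for nucleases that cut joined molecules, EME1 fell in palbociclib while MUS81 and SLX4 were not called. EME1, the regulatory subunit of MUS81, had 12.3 and 12.4 CPM in palbociclib, 18.2 and 13.9 CPM in GSK3326595 and 21.4 and 21.3 CPM in DMSO. It fell by 0.80 on the log2 scale in palbociclib (edgeR adjusted p = 0.0008) and was not called in GSK3326595 at -0.41 (edgeR adjusted p = 0.0572), where leaving out GSK3326595 replicate 1 gave -0.62 (edgeR adjusted p = 0.00825). Of the exon bases of EME1, 10.3% lie in LRRC59 on the opposite strand, which was not called in either inhibitor. MUS81, the catalytic subunit, had 54.2 and 49.5 CPM in palbociclib, 63.2 and 59.9 CPM in GSK3326595 and 55.6 and 46.7 CPM in DMSO, and its log2 fold changes of 0.02 and 0.27 were not called. SLX4, the scaffold that gathers several nucleases, stood at -0.24 in palbociclib (edgeR adjusted p = 0.0782) and -0.01 in GSK3326595.

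The ratio of 2 partners within a library shows this split without any scaling of the libraries. For each ratio 0.5 was added to both counts, and no test was made, since 2 against 2 libraries cannot reach 0.05 in an exact permutation test. The log2 ratio of BLM to TOP3A was -2.91 and -2.76 in palbociclib, -2.04 and -1.91 in GSK3326595 and -1.32 and -1.27 in DMSO. For BRCA2 to PALB2 it was -0.20 and -0.09 in palbociclib, 0.20 and 0.19 in GSK3326595 and 0.84 and 0.85 in DMSO. For EME1 to MUS81 it was -2.14 and -2.0 in palbociclib, -1.79 and -2.10 in GSK3326595 and -1.38 and -1.13 in DMSO. In all 3 pairs both inhibitors lay under DMSO, so the cell-cycle-bound partner was reduced relative to the constitutive one. The difference of the mean ratio between palbociclib and DMSO was -0.96 for XRCC2 to RAD51D, -1.63 for FANCA to FANCF and -1.01 for EXO1 to MRE11, and between GSK3326595 and DMSO it was -0.56, -1.08 and -0.47 for the same pairs. FANCB to FANCL was the exception among the 7 pairs of a cell-cycle-bound and a constitutive gene, with differences of 0.05 and -0.06 and overlapping libraries.

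Within a class some partners also shifted. BRCA1 to BARD1 was 2.64 and 2.81 in palbociclib, 2.07 and 2.11 in GSK3326595 and 1.98 and 2.02 in DMSO, so the ratio was higher in palbociclib, where BARD1 was at 24.5% and BRCA1 at 40.5% of the DMSO level. RAD50 to MRE11 was 1.24 and 1.21 in palbociclib, 1.25 and 1.64 in GSK3326595 and 0.56 and 0.61 in DMSO. FANCD2 to FANCI, which act as a pair, was -0.59 and -0.63 in palbociclib, -0.49 and -0.49 in GSK3326595 and -0.83 and -0.86 in DMSO. In these 3 pairs every inhibitor library lay above every DMSO library. In the fourth pair, UBE2T to USP1, the GSK3326595 libraries at -2.19 and -1.93 overlapped the DMSO libraries at -2.12 and -2.01. Its palbociclib libraries, at -1.97 and -1.86, lay above both DMSO libraries. The share of all gene pairs that separate in this way was not determined, here or for the pairs across classes.

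**Figure D3:**
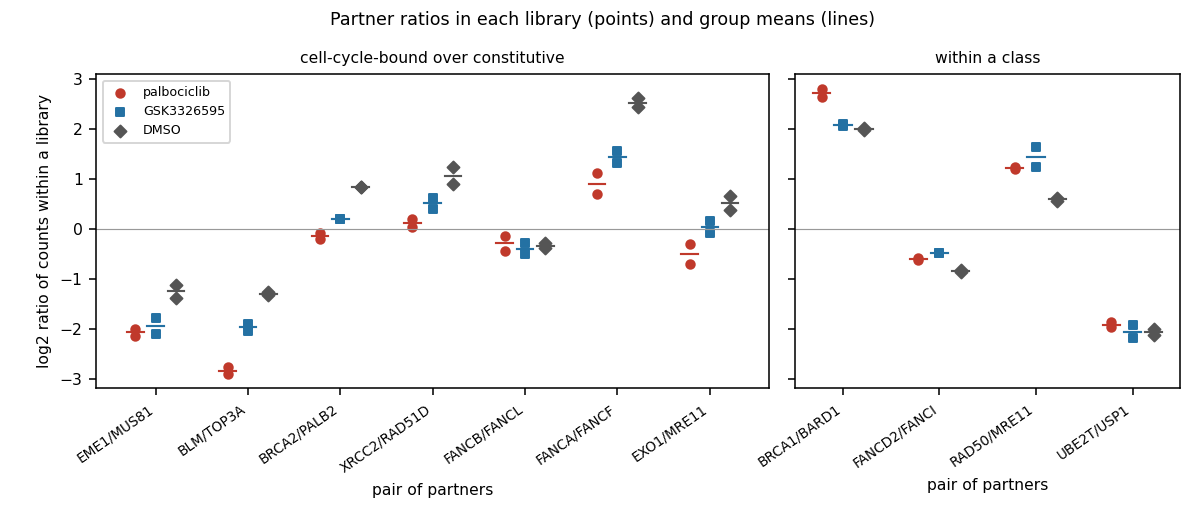
Log2 ratio of the counts of 2 partners in each library (points) with the group mean (line), for palbociclib, GSK3326595 and DMSO. In BLM to TOP3A, BRCA2 to PALB2 and FANCA to FANCF the palbociclib points are lowest and the DMSO points highest, whereas the points of FANCB to FANCL overlap.

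Palbociclib and GSK3326595 were then set against each other directly, which tests whether the inhibitors differ. Of the cell-cycle-bound members 15 were lower in palbociclib, 1 was higher and 7 were not called, with a median log2 fold change of -0.56. Of the constitutive members 7 were lower and 8 not called, with a median of -0.33, against -0.03 over all genes. Among all genes, 18.2% were called lower in palbociclib than in GSK3326595 and 16.6% higher. None of the constitutive members was higher in palbociclib at an unadjusted p under 0.05 in edgeR or with DESeq2. Without palbociclib replicate 1 the count of 7 became 4. The 10 members with the smallest p were USP1, BARD1, BRIP1, BRCA2, RAD51AP1, BLM, EXO1, FANCA, RMI1 and RBBP8, and all 10 were lower in palbociclib. The log2 fold change was -0.95 ± 0.087 for USP1 (edgeR adjusted p = 1.82e-05), -1.06 ± 0.125 for BARD1 (8.92e-05) and -0.92 ± 0.108 for BRIP1 (8.97e-05). BRCA2 was lower by -0.86 ± 0.105 and RBBP8 by -0.68 ± 0.106 (edgeR adjusted p = 0.000106 and 0.000519). Among the constitutive members RAD50 was lower in palbociclib by -0.55 ± 0.0889 and RAD52 by -0.58 ± 0.131 (edgeR adjusted p = 0.000603 and 0.00492), both of which were higher in GSK3326595 than in DMSO.

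FANCM, named here after its values were seen, was the member that was higher in palbociclib than in GSK3326595, with a log2 fold change of 0.43 ± 0.124 (edgeR adjusted p = 0.0183). The call ended without palbociclib replicate 1 (edgeR adjusted p = 0.0688), palbociclib replicate 2 (0.101) or GSK3326595 replicate 2 (0.0595). Leaving out 1 library also ended the call of 5 members that were lower in palbociclib. These were RAD51C without palbociclib replicate 1 (edgeR adjusted p = 0.0512), XRCC2 without palbociclib replicate 2 or GSK3326595 replicate 1 (0.0533 and 0.087), and NBN without palbociclib replicate 1 or 2 (0.0685 and 0.053). MRE11 was lost without palbociclib replicate 1 or 2 or GSK3326595 replicate 1 (edgeR adjusted p = 0.0781, 0.186 and 0.227) and RMI2 without palbociclib replicate 1 or 2 or GSK3326595 replicate 2 (0.198, 0.0866 and 0.125).

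A further 38 genes of homologous recombination and crosslink repair, which are not members, were described in the same way. In palbociclib 20 were lower, 1 was higher and 17 were not called, where 20.2% of all genes were lower and 19.3% higher, and the median log2 fold change was -0.33. DESeq2 called 16 lower and 1 higher in palbociclib. The lower calls of RPA2, WRN, HROB, CENPX, FAN1 and REV3L were each lost in some runs that left out a library. In GSK3326595 10 were lower, 0 were higher and 28 went uncalled, where 10.2% of all genes were lower and 8.58% higher, and the median was -0.22. Neither an unadjusted p under 0.05 in edgeR nor DESeq2 gave a higher gene. MMS22L, which works with TONSL on replication forks, had 15.1 and 15.5 CPM in palbociclib, 27.9 and 28.4 CPM in GSK3326595 and 53.4 and 54.7 CPM in DMSO. Its log2 fold changes were -1.82 ± 0.1 and -0.94 ± 0.0963 (edgeR adjusted p = 1.76e-07 and 7.55e-05). DNA2, a nuclease of long-range resection, had 9.30 and 10.9 CPM in palbociclib, 20.5 and 17.5 CPM in GSK3326595 and 32.0 and 33.8 CPM in DMSO, and fell by 1.71 on the log2 scale in palbociclib (edgeR adjusted p = 1.22e-06). MCM8, part of a helicase of recombination, had 46.3 and 43.3 CPM in palbociclib, 49.8 and 48.5 CPM in GSK3326595 and 82.0 and 88.9 CPM in DMSO, and fell by 0.80 on the log2 scale in GSK3326595 (edgeR adjusted p = 0.00013).

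EME2, the alternative partner of MUS81, was the gene of that list that was higher in palbociclib. It had 30.0 and 26.9 CPM in palbociclib, 21.2 and 14.5 CPM in GSK3326595 and 20.5 and 13.6 CPM in DMSO. The log2 fold change in palbociclib was 0.74 ± 0.191 (edgeR adjusted p = 0.00903), opposite in sign to that of EME1. The call was lost without palbociclib replicate 1 (edgeR adjusted p = 0.0586) or DMSO replicate 2 (0.0696).

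End joining, the repair route that is open throughout the cell cycle, was followed through 12 of 13 listed genes. SHLD3 was not found among the symbols of the count tables. In palbociclib 7 were lower, 1 was higher and 4 were not called, where 20.2% of all genes were lower and 19.3% higher, and the median log2 fold change was -0.40. DESeq2 also called 7 lower and 1 higher in palbociclib. The lower calls of XRCC5, XRCC6 and PRKDC were each lost in some runs that left out a library. In GSK3326595 1 was lower, 1 was higher and 10 went uncalled, the median being -0.03, which is close to the shares of all genes, 10.2% lower and 8.58% higher. DESeq2 called 2 lower and 0 higher there. RIF1, which restrains resection, had 123 and 122 CPM in palbociclib, 191 and 196 CPM in GSK3326595 and 238 and 255 CPM in DMSO. It fell by 1.01 and 0.35 on the log2 scale (edgeR adjusted p = 2.43e-06 and 0.0119), and the second call was lost without DMSO replicate 2 (edgeR adjusted p = 0.0853). SHLD2, a shieldin subunit that acts after RIF1, had 31.5 and 32.8 CPM in palbociclib, 57.3 and 57.8 CPM in GSK3326595 and 53.0 and 56.2 CPM in DMSO. It fell by 0.76 on the log2 scale in palbociclib (edgeR adjusted p = 5.31e-05). LIG4, the ligase that seals the ends, rose in palbociclib, with 45.0 and 38.6 CPM in palbociclib, 36.6 and 33.8 CPM in GSK3326595 and 30.0 and 28.7 CPM in DMSO (log2 fold change 0.51 ± 0.108, edgeR adjusted p = 0.00287). SHLD1, another shieldin subunit, was the gene called higher in GSK3326595, at 0.59 ± 0.183 (edgeR adjusted p = 0.0408), and that call was lost in 8 alternatives. They include leaving out either palbociclib library (edgeR adjusted p = 0.0715 and 0.0727), GSK3326595 replicate 2 (0.178) and DMSO replicate 1 or 2 (0.201 and 0.0996).

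**Figure D4:**
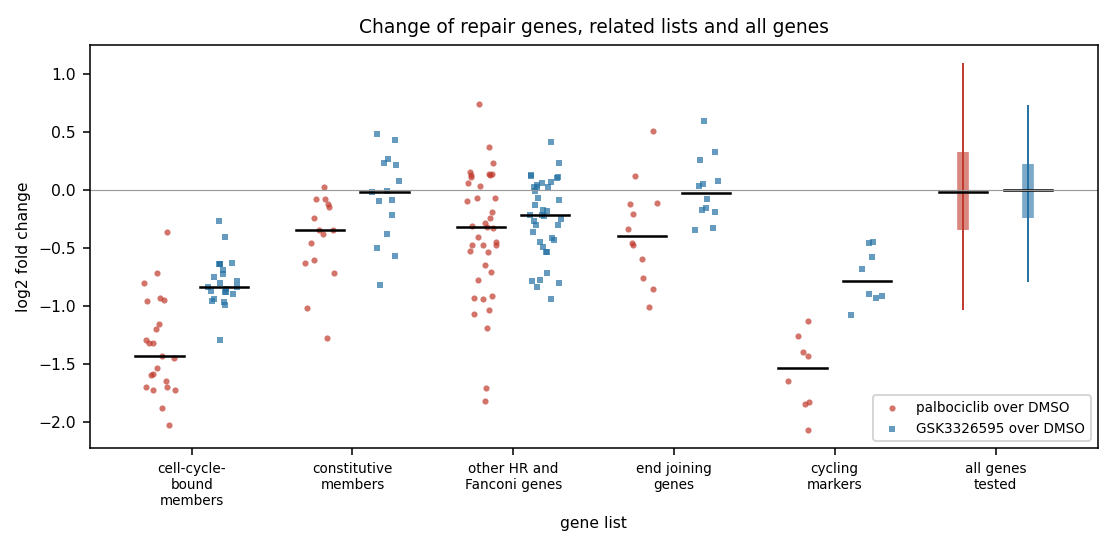
Log2 fold change of each gene (points) of the cell-cycle-bound and constitutive members, the other recombination and Fanconi genes, the end joining genes and the cycling markers, with list medians as black lines, for palbociclib and GSK3326595, each over DMSO. For all genes the thick bar spans percentiles 25 to 75 and the thin bar 5 to 95, and the cycling markers and cell-cycle-bound members have the lowest medians in both inhibitors against DMSO.

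Promoter windows were read because the 2 classes of members are defined by cell-cycle transcription, and 6 are printed as examples of windows with an E2F match, with a CHR match or with no match. RefSeq windows on GRCh38.p14, from 250 bases before to 50 after the annotated start, were matched for 34 of the 38 members, 20 of them cell-cycle-bound and 14 constitutive. Both strands were searched for the E2F motif (TTTGGCGC, TTTCCCGC, TTTCGCGC or TTTGCCGC), the CHR element of DREAM target genes (TTTGAA or TTCGAA) and the CCAAT box (CCAAT). Each is printed 5′ to 3′ on the gene's strand, with matches in capitals, and 0 matches overlapped.
EXO1, chr1:241847954-241848253, plus strand: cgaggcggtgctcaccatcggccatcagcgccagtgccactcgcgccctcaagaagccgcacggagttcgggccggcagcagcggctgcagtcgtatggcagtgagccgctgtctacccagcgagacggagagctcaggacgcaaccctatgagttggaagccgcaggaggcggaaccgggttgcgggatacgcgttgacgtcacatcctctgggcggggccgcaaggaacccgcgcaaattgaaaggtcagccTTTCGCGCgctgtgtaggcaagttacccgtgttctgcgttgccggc
FANCD2, chr3:10026187-10026486, plus strand: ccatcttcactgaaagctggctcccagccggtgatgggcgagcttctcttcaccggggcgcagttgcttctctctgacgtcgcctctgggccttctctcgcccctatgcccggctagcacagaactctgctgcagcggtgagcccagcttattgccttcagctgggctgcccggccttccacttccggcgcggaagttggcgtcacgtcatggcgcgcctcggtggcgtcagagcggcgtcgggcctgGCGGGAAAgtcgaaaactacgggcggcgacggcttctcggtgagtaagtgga
FANCA, chr16:89816598-89816897, minus strand: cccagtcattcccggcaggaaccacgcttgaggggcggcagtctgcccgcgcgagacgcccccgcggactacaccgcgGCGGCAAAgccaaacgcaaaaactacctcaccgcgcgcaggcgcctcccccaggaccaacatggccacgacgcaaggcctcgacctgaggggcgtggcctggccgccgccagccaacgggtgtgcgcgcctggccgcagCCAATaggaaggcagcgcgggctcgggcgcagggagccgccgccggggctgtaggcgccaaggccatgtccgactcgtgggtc
UBE2T, chr1:202341887-202342186, minus strand: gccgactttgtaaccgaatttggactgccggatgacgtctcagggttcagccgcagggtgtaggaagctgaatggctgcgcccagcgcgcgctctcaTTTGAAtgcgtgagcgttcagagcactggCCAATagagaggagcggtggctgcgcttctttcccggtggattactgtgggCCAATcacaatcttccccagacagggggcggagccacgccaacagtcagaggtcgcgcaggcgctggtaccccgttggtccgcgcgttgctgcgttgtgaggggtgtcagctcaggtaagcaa
FANCC, chr9:95317660-95317959, minus strand: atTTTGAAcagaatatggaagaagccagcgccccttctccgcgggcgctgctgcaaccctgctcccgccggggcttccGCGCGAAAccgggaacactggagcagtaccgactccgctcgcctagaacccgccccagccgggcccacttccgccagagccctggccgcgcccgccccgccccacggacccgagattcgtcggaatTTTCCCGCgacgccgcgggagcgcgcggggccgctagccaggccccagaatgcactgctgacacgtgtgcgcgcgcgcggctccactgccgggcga
TOP3A, chr17:18314945-18315244, minus strand: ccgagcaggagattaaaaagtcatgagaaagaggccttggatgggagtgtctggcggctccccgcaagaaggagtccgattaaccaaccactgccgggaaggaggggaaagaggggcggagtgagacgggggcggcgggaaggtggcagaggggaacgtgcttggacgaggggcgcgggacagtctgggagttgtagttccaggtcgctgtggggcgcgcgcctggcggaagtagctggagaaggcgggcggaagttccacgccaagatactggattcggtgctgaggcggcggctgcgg

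An E2F match was found in 4 of 20 cell-cycle-bound windows (20.0%), those of XRCC2, FANCA, FANCD2 and EXO1, in 1 of 14 constitutive windows (7.143%), and in 4.438% of 15842 protein-coding promoters. The constitutive window with a match is that of FANCC, which holds 2 E2F matches and 1 CHR match and whose transcript was at 41.3% of the DMSO level in palbociclib. A CHR match was found in 2 of the 20 cell-cycle-bound windows, those of BRIP1 and UBE2T, in the FANCC window (7.143%) and in 13.477% of all promoters. CCAAT was found in 9 cell-cycle-bound windows (45.0%), in 5 constitutive windows (35.714%) and in 36.353% of all promoters. No match of any kind was found in 8 of 20 cell-cycle-bound windows, those of BRCA1, BRCA2, BARD1, FANCB, FANCE, FANCG, RBBP8 and EME1. The same held for 8 of 14 constitutive windows, among them TOP3A and FANCL. Each gene had 1 window at 1 annotated start, and its other starts were not searched. The windows of BRCA2, RAD51B, RAD52, RBBP8, MRE11 and MUS81 do not reach the outer end of the gene. A window without a match therefore does not show that the other promoters of that gene, BRCA1 included, lack the motifs. MUS81 and FANCF, which were not called in either inhibitor, hold CCAAT, so the printed windows do not stand for their classes. A match describes the letters in the window and does not show that a factor binds there.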

How the data were processed

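For each of the 6 libraries the authors deposited raw counts by NCBI Gene ID, without normalization. Per the labels' protocols, ribosomal RNA was depleted from total RNA and libraries were made with an Illumina TruSeq kit. Per the submitters' processing notes, the tools were HISAT2, featureCounts 1.6.2, cutadapt 1.7, CASAVA 1.8.2 and limma, with hg38 as the genome. Of the gene annotation, the strand setting and reads with several alignments, nothing is stated (not given in the sources used here). Reads of a gene and an overlapping one on the opposite strand therefore cannot be told apart, and the 6 members with over 10% of their exon bases inside another gene (GENCODE, GRCh38) are marked in the text. IDs were matched to symbols and positions in the RefSeq gene table of GRCh38.p14, where 27741 matched and 654 did not.

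Total counts lay between 16589153 and 20842099 per library. edgeR 4.0.16 in R 4.3.3 was run on the counts of all 6 libraries in 1 fit without covariates, with filterByExpr (minimum count 10, 16381 genes kept), TMM scaling and 3 residual degrees of freedom, and the common biological coefficient of variation was 0.0839. Contrasts were tested two-sided by the quasi-likelihood F test with Benjamini-Hochberg adjustment over all genes, with 0.05 as the threshold on the adjusted p. The SE of a log2 fold change is approximate, its size divided by the square root of F. Levels are TMM-scaled CPM, and percentages of the DMSO level come from the fitted fold change. Within each group the 2 libraries differed beyond sampling noise (chi-square over its degrees of freedom 5.123 in palbociclib, 9.901 in GSK3326595 and 7.761 in DMSO), and none were merged. The fit was tested on simulated counts first. Alternatives were DESeq2 1.42.0, other scalings and filters, 2-group fits, a replicate block and leaving out each library. Members, classes and lists were chosen with earlier results of these data known. Values in every library are given for the members with the smallest p in each class and comparison and for those called higher, and for further members where partners are compared.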

Additional observations from a re-analysis of the deposited data

How the results depend on the processing

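Of the members called, 28 of 30 in palbociclib against DMSO, 21 of 27 in GSK3326595 against DMSO and 17 of 23 in palbociclib against GSK3326595 were called under all 13 alternatives, and no called member changed sign. The count of members higher in GSK3326595 than in DMSO, both constitutive, was 1 in place of 2 with library totals as the scaling, with 2 groups in the fit and with DESeq2, 1 to 2 when a library was left out, and 3 with the replicate block. The count of constitutive members lower in GSK3326595 was 1 to 5 when a library was left out, and 2 with overlapping members set aside, an alternative chosen after seeing the data. In palbociclib against GSK3326595, leaving out a library gave 0 to 1 members higher and 4 to 7 constitutive members lower. All genes called numbered 3993 to 7189, 1738 to 3206 and 3299 to 5519 in palbociclib against DMSO, GSK3326595 against DMSO and palbociclib against GSK3326595 when a library was left out. Fewer libraries leave fewer degrees of freedom. Counts of all genes called fell in some runs and rose in others, and the causes were not tested.

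Signs turned when a library was left out for members that were not called, and their log2 fold changes then ranged from -0.18 to 0.04 (FANCF) and -0.08 to 0.15 (MUS81) in palbociclib against DMSO. In GSK3326595 against DMSO the ranges were -0.20 to 0.00 (PALB2), -0.02 to 0.15 (RAD51B), -0.51 to 0.02 (RAD51D), -0.05 to 0.02 (SLX4) and -0.10 to 0.06 (TOP3A). In palbociclib against GSK3326595 they were -0.37 to 0.17 (RAD51D), -0.27 to 0.20 (XRCC3) and -0.23 to 0.05 (FANCB).

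Replicate numbers are shared by the groups, but the labels do not say what a number shares. Deviations of same-numbered libraries correlated at 0.1404, 0.1794 and 0.3406 in the 3 pairs of groups. With the replicate number as a block, members lower were 32, 27 and 28 in palbociclib against DMSO, GSK3326595 against DMSO and palbociclib against GSK3326595. The block added RBBP8 and EME1 as lower and MUS81 as higher in GSK3326595 (edgeR adjusted p = 0.00331, 0.00354 and 0.00477), which makes 23 of 23 cell-cycle-bound members lower there, and SLX4 and RAD51D as lower in palbociclib (edgeR adjusted p = 0.0179 and 0.02). Constitutive members lower in the direct comparison were 11 in place of 7, and all genes called in GSK3326595 against DMSO were 5769 in place of 3081. Small changes of genes with low counts, such as RAD51B, can go uncalled, and the part that depth has in this was not tested.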
